A study of Homo sapiens with 4 samples.

Results

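The 10 enzymes that make serine and pass its one-carbon unit along the folate pathway were examined. They were picked by gene symbol from the deposited table, 10 of its 61806 genes. They comprise 3 enzymes of serine synthesis (PHGDH, PSAT1 and PSPH), 2 cytosolic folate enzymes (SHMT1 and MTHFD1) and 5 mitochondrial folate enzymes (SHMT2, MTHFD2, MTHFD1L, MTHFD2L and ALDH1L2). RNA was sequenced from human chondrosarcoma JJ012 cells and human osteosarcoma 143B cells, both established lines grown in suspension, either untreated (control) or exposed to 1 mM melatonin for 72 h. Each of the 4 conditions is represented by 1 library, so differences within a line have no replicate check. The only p-values given come from a fit over both lines.

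Cells make serine from the glycolytic intermediate 3-phosphoglycerate in the cytosol. Serine hydroxymethyltransferase then moves a carbon from serine to tetrahydrofolate, in the cytosol through SHMT1 and in mitochondria through SHMT2, and the folate-bound unit is oxidised or reduced by the MTHFD enzymes before it is used for purines, thymidylate and methionine. In proliferating cells the mitochondrial branch usually releases formate, which MTHFD1 reloads on folate in the cytosol, and the cycle also yields NADPH.

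Levels are given as FPKM, the counts divided by exonic length and library total. A log2 fold change is the log2 ratio of FPKM + 1, a pseudocount that understates changes of low genes. A gene was tested when either library of the pair held 1 FPKM or more, and was called higher or lower at a log2 fold change of 0.58 or more in size. CPM are counts scaled to the library total without regard to length. Their log2 ratio stands beside the fold change, and its 95% interval (exact, Clopper-Pearson) covers counting error only. Library totals ran from 15889564 to 19218343 counts, so 3 counts, the floor used, equal 0.156 to 0.189 CPM. Most markers of the labelled tissues were near 0. Of 5 cartilage markers only SOX9 reached 1 FPKM, with 15.06 and 6.16 FPKM in control and melatonin-treated JJ012 and 15.48 and 12.09 FPKM in 143B, and COL2A1 and ACAN had at most 0.11 FPKM. Of 5 markers of bone-forming cells, RUNX2 had between 2.59 and 4.28 FPKM and BGLAP between 0.26 and 1.44 FPKM, while ALPL, SP7 and IBSP had at most 0.36 FPKM. The share of counts from mitochondrially encoded genes was 6.78% in control and 4.35% in melatonin-treated JJ012, against 1.63% and 2.46% in 143B. Of the 3 leukocyte markers, CD3E reached 9.73 FPKM in the JJ012 control and 3.28 FPKM after melatonin, while PTPRC stayed at 0.14 FPKM or less and CD3E had 0 counts in 143B. The summed FPKM of that list ran from 0.05 to 10.38, that of 3 endothelial markers from 0.93 to 2.40 and that of 3 epithelial markers from 0.08 to 2.32. Each sum was lower after melatonin than in the control of the same line, in JJ012 and in 143B. The part of these markers and of the mitochondrial share in the results was not tested. In RNA of whole cultures, a gene carried by fewer cells and a gene with less RNA per cell cannot be told apart.

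The untreated lines were compared first, to show how much of the pathway each line expressed. All 3 serine synthesis enzymes and 4 of the 5 mitochondrial folate enzymes were lower in JJ012 than in 143B, MTHFD2L was higher, and neither cytosolic enzyme reached the threshold. In all, 8 of the 10 enzymes were called, against 68.7% of the 16929 tested genes in either direction (64.6% of protein-coding ones). By direction, 7 were lower in JJ012, where 27.4% of tested genes were lower, and 1 was higher, where 41.3% were. Their median log2 difference, JJ012 over 143B, was -0.77, against 0.29 for all tested genes. TPM values or TMM factors move that general median to -0.01 or 0.01. Most of the enzymes moved lower as well, SHMT2 for example from -1.32 to -1.78 (TPM) or -1.63 (TMM). With either, 9 enzymes were called, where 73.4% (TPM) and 67.8% (TMM) of tested genes were. By counting error alone, 2 enzymes had a CPM interval above 0 and 8 had one below 0, where 50.8% and 35.1% of tested genes did.

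PHGDH, phosphoglycerate dehydrogenase, catalyses the first and committed step of serine synthesis. It had 1.94 FPKM in the JJ012 control (343 counts), 2.49 FPKM in melatonin-treated JJ012 (370 counts), 47.83 FPKM in the 143B control (6982 counts) and 34.47 FPKM in melatonin-treated 143B (5435 counts). Both 143B libraries were thus far above both JJ012 libraries. By CPM, untreated JJ012 was 24.6-fold lower than untreated 143B, a log2 ratio of -4.62 (95% interval -4.78 to -4.47), and 115 of the 16929 tested genes had a lower log2 difference. PHGDH (ENSG00000092621) lies on the plus strand of chromosome 1 from 119648411 to 119744218. Among 9673 other genes that reached 5 FPKM in some library, the patterns over the 4 libraries most like it were those of SULT4A1, RN7SKP268 and IL10RA, at Euclidean distances of 0.13, 0.18 and 0.19 in gene-centred log2(FPKM + 1). SULT4A1, a sulfotransferase, had 0.16 and 0.22 FPKM in control and melatonin-treated JJ012 and 17.08 and 12.47 FPKM in 143B.

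Promoter windows were read from RefSeq (GRCh38.p14) to set the letters before the start sites beside these values, and 7 of the 10 enzymes matched. They were searched on both strands for TGATGNAA, the core of the element bound by the amino acid stress factor ATF4 with C/EBP proteins, and for the E-box CACGTG. Of all 35116 windows of 300 bases, 3.62% hold the first and 7.26% the second. The 250 bases before a start site are shown for PHGDH and PSAT1, which carry the widest difference between lines and the highest log2 fold change after melatonin, and for MTHFD1 and MTHFD1L, the enzymes whose windows hold a match. Capitals mark the matches. The windows are chr1:119711684-119711933, chr9:78296875-78297124, chr14:64388103-64388352 and chr6:150866236-150866485, all on the plus strand.
PHGDH: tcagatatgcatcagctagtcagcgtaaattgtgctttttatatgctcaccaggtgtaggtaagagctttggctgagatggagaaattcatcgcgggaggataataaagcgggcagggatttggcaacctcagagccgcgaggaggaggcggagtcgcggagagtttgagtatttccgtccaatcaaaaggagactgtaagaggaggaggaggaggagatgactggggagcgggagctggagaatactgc
PSAT1: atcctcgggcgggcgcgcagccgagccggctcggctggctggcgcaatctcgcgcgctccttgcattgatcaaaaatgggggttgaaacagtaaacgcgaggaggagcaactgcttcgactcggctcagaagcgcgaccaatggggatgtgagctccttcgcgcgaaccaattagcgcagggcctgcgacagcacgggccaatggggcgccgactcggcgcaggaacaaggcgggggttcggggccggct
MTHFD1: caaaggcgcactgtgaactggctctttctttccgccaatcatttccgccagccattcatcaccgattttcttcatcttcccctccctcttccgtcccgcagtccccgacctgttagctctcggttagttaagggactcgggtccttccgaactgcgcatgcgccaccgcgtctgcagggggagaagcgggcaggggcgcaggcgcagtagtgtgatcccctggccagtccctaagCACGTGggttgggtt
MTHFD1L: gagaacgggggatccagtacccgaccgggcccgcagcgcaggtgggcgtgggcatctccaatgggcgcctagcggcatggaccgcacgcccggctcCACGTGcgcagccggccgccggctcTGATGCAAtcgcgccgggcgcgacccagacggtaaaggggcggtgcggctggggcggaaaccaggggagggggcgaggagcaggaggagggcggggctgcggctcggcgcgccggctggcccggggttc
MTHFD1L held TGATGCAA and CACGTG in the same window, beginning 129 and 154 bases before the start site shown. Of its 4 RefSeq windows, the other 2 that overlap this one hold the same letters nearer to or past starts that lie further upstream, and the window of a start far downstream holds neither. MTHFD1 held CACGTG beginning 15 bases before its start. The windows of PHGDH, PSAT1, SHMT1, MTHFD2 and MTHFD2L held neither run of letters. A match is a description of the sequence and does not show binding.

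PSAT1, phosphoserine aminotransferase, carries out the second step and uses glutamate as the amino donor. It had 5.0 FPKM in the JJ012 control (212 counts), 10.28 FPKM in melatonin-treated JJ012 (366 counts), 21.14 FPKM in the 143B control and 22.08 FPKM in melatonin-treated 143B. The 143B libraries did not differ beyond counting error, and JJ012 stayed below them even after treatment. Untreated JJ012 was 4.23-fold lower than untreated 143B by CPM. PSPH, phosphoserine phosphatase, releases serine in the last step. It had 6.07 FPKM in the JJ012 control (322 counts), 3.01 FPKM in melatonin-treated JJ012 (134 counts), 9.57 FPKM in the 143B control and 10.27 FPKM in melatonin-treated 143B. Its log2 difference between the untreated lines, -0.58, lay right at the threshold, and the CPM ratio was 1.58-fold lower in JJ012.

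Within serine synthesis, the untreated lines differed in which enzyme was most abundant per length. PHGDH made up 60.9% of the summed FPKM of the 3 enzymes in untreated 143B and 14.9% in untreated JJ012, where PSPH was first with 46.7%. After melatonin, PSAT1 became first in JJ012 with 65.1%, while PHGDH kept 51.6% in 143B.

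**Figure D1:**
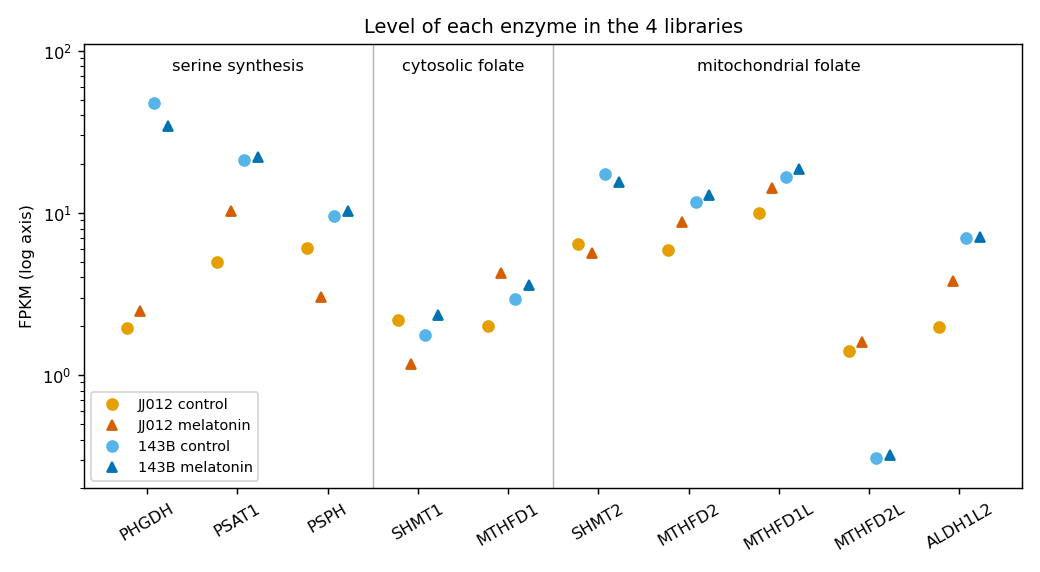
FPKM of each enzyme in the 4 libraries, on a log axis, with 1 point per library (circles for controls, triangles for melatonin). PHGDH has 47.83 FPKM in the 143B control and 1.94 FPKM in the JJ012 control, while MTHFD2L is the enzyme with the clearly lower points in 143B, at 0.31 and 0.32 FPKM.

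Among the mitochondrial enzymes, SHMT2, which splits serine into glycine and a folate-bound carbon in the matrix, had 6.41 FPKM in the JJ012 control, 5.64 FPKM in melatonin-treated JJ012, 17.47 FPKM in the 143B control and 15.55 FPKM in melatonin-treated 143B. Untreated JJ012 was 2.72-fold lower than untreated 143B by CPM. MTHFD2, the mitochondrial dehydrogenase and cyclohydrolase that is typical of embryonic and tumour cells, had 5.94 and 8.78 FPKM in control and melatonin-treated JJ012 and 11.59 and 12.84 FPKM in control and melatonin-treated 143B. It was 1.95-fold lower in untreated JJ012 than in untreated 143B. MTHFD1L, the mitochondrial formyl-tetrahydrofolate synthetase that releases formate, had 9.94 and 14.22 FPKM in JJ012 and 16.65 and 18.65 FPKM in 143B, in the same order. Its untreated level was 1.68-fold lower in JJ012. For both enzymes each library stood apart from the next by more than counting error, in the order JJ012 control, JJ012 melatonin, 143B control and 143B melatonin.

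ALDH1L2, a mitochondrial dehydrogenase that oxidises formyl-tetrahydrofolate and makes NADPH, had 1.98 and 3.82 FPKM in control and melatonin-treated JJ012 and 6.99 and 7.11 FPKM in control and melatonin-treated 143B. It was 3.52-fold lower in untreated JJ012 than in untreated 143B. MTHFD2L, the paralogue of MTHFD2 found in adult tissues, went the other way. It had 1.40 FPKM in the JJ012 control (264 counts), 1.6 FPKM after melatonin (254 counts), 0.31 FPKM in the 143B control (49 counts) and 0.32 FPKM in melatonin-treated 143B (54 counts). The untreated level was 4.45-fold higher in JJ012, a log2 CPM ratio of 2.16 (95% interval 1.71 to 2.63).

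The cytosolic enzymes were low in both lines. SHMT1, the cytosolic serine hydroxymethyltransferase, had 2.18 FPKM in the JJ012 control (294 counts), 1.17 FPKM in melatonin-treated JJ012 (132 counts), 1.76 FPKM in the 143B control (196 counts) and 2.33 FPKM in melatonin-treated 143B (280 counts). Its log2 difference of 0.20 between the untreated lines turned to -0.06 on the TPM scale, -0.03 with TMM factors and -0.08 when centred on the median gene. MTHFD1, the trifunctional cytosolic enzyme that reloads formate on folate, had 2.02 FPKM in the JJ012 control (673 counts), 4.24 FPKM in melatonin-treated JJ012 (1188 counts), 2.96 FPKM in the 143B control (816 counts) and 3.58 FPKM in melatonin-treated 143B (1068 counts). Its difference between the untreated lines was -0.39, and passed the threshold at -0.85 on the TPM scale, -0.64 with TMM factors and -0.68 when centred. The deposited exonic lengths of MTHFD1 (17357 bases) and MTHFD2 (11443 bases) were 1.85 and 2.35 times those of GENCODE 29, whereas the other enzymes had ratios between 0.949 and 1.12. The FPKM of this pair therefore look lower beside other genes than with the GENCODE lengths, and their log2 fold changes of FPKM + 1 are also smaller, whereas CPM ratios of 1 gene do not depend on length.

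Melatonin was compared with control within JJ012 to ask whether treatment altered the RNA of these enzymes. PSAT1, MTHFD1 and ALDH1L2 rose and PSPH fell. These 4 of 10 enzymes compare with 38.2% of the 15794 tested genes called in either direction (33.9% of protein-coding ones, a background added after seeing the data), so their number lay near the background. The direction was 3 higher and 1 lower, with 19.6% of tested genes higher and 18.6% lower. The median log2 fold change of the 10 was 0.36, against 0.01 for all tested genes. By counting error alone, 6 had a CPM interval above 0 and 3 had one below 0, where 36.9% and 35.2% of tested genes did. With the trend over exonic length removed, 1 enzyme was higher (PSAT1) and 2 were lower (PSPH and SHMT1), with MTHFD1 at 0.44 and ALDH1L2 at 0.40. The trend used the deposited lengths, and that of MTHFD1 was 1.85 times its GENCODE 29 length. Removal with GENCODE lengths was not tested. Across all tested genes of JJ012 the log2 fold change had a Spearman correlation of 0.24 with exonic length, a description over genes that share their libraries.

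In serine synthesis, PSAT1 had the highest log2 fold change of the 10, 0.91, and rose 2.06-fold by CPM, a log2 ratio of 1.04 (95% interval 0.79 to 1.29). PSPH was 2.02-fold lower after melatonin, a log2 ratio of -1.01 (95% interval -1.31 to -0.72) and a log2 fold change of -0.82. PHGDH had a log2 fold change of 0.25, under the threshold, and -0.02 once the length trend was removed. The ratio of PSAT1 to PSPH within a library, which does not depend on library totals, went from 0.824 in the control to 3.42 after melatonin on the FPKM scale. The log2 change of this ratio was 2.05 (95% counting interval 1.67 to 2.43). Per length, PSPH thus lay above PSAT1 in the JJ012 control and below it after melatonin.

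In the cytosolic folate branch, MTHFD1 rose 2.10-fold by CPM in JJ012, a log2 ratio of 1.07 (95% interval 0.93 to 1.21) and a log2 fold change of 0.80. SHMT1 had a log2 ratio of CPM of -0.90 (95% interval -1.21 to -0.60), while its log2 fold change of -0.55 did not reach the threshold. With a pseudocount of 0.1 or on the CPM scale SHMT1 was called as well. The FPKM ratio of MTHFD1 to SHMT1 within a library, with the deposited exonic lengths, went from 0.925 to 3.64 in JJ012. Its log2 change, which does not depend on length, was 1.98 (95% counting interval 1.65 to 2.30).

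Both cytosolic genes overlap genes on the other strand. SMCR8 shares 196 exonic bases with SHMT1 in GENCODE 29 and was 3.11-fold higher after melatonin in JJ012, with 1385 and 3616 counts. ZBTB25 shares 178 exonic bases with MTHFD1 and had 863 and 574 counts, a fold of 0.792. ENSG00000272909 shares more exonic bases with MTHFD1, 756, but had 19 and 3 counts in JJ012. SLC4A5 shares 1324 exonic bases with MTHFD2 and had between 10 and 42 counts in the 4 libraries. The strand setting of the counting is not given in the sources used here, and the part of these neighbours in the values of SHMT1, MTHFD1 and MTHFD2 was not tested.

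In the mitochondrial branch of JJ012, ALDH1L2 rose 1.93-fold by CPM, a log2 ratio of 0.95 (95% interval 0.75 to 1.14) and a log2 fold change of 0.69. NOPCHAP1, which shares 145 exonic bases with it on the other strand, was 2.30-fold higher with 93 and 180 counts. WASHC4, whose span overlaps that of ALDH1L2 without shared exonic bases in GENCODE 29, was 1.95-fold higher. The part of these neighbours in the value of ALDH1L2 was not tested. MTHFD2 and MTHFD1L had log2 fold changes of 0.49 and 0.48, both under the threshold, with CPM ratios of 1.48-fold and 1.43-fold. On the TPM scale, which moved the median gene of JJ012 from 0.01 to 0.27, they were called at 0.81 and 0.78. SHMT2 had a log2 fold change of -0.16 and of 0.09 on the TPM scale, so its direction depended on the scaling. MTHFD2L had 0.12, with a CPM interval of -0.06 to 0.45 that included 0.

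In 143B, no enzyme reached the threshold after melatonin. Of the 9 tested, 0 were called, against 12.7% of the 14135 tested genes and 6.09% of protein-coding ones, and 0 were called under each of the 9 alternatives run. Of these, the filter of 5 FPKM and the threshold of 1 could not have added a call. MTHFD2L was left out by the filter, with at most 0.32 FPKM. The median log2 fold change was 0.09, against 0.03 for all tested genes. By counting error alone, 4 of the 9 had a CPM interval above 0 and 2 had one below 0, where 28.4% and 23.5% of tested genes did.

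PHGDH had the largest shift in 143B, with a log2 fold change of -0.46. By CPM it was 1.39-fold lower after melatonin, a log2 ratio of -0.47 (95% interval -0.52 to -0.42), and 9.33% of tested genes had a log2 fold change as low or lower. SHMT2 was the other enzyme with an interval below 0, at a log2 ratio of -0.17 (95% interval -0.28 to -0.05). SHMT1, MTHFD1, MTHFD1L and MTHFD2 had intervals above 0, with CPM ratios of 1.32-fold, 1.21-fold, 1.12-fold and 1.11-fold. For PSAT1, PSPH and ALDH1L2 the intervals included 0, with log2 ratios of 0.06, 0.10 and 0.03.

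**Figure D2:**
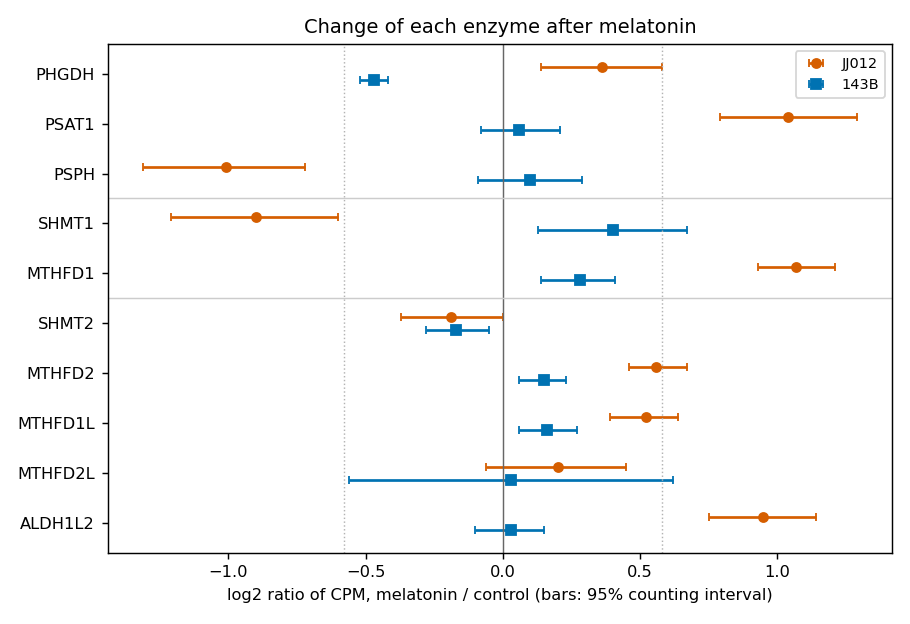
Log2 ratio of CPM, melatonin over control, for each enzyme in JJ012 (circles) and 143B (squares), with 95% counting intervals as bars and dotted lines at 0.58 on either side of 0. PSAT1, MTHFD1 and ALDH1L2 lie to the right and PSPH and SHMT1 to the left in JJ012, while the 143B points stay between -0.47 and 0.40.

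The change in JJ012 less that in 143B was computed on the log2 CPM scale with a counting interval. It excluded 0 for 8 of the 9 enzymes tested in both lines, where 70.9% of the 11358 genes tested in both did, so such intervals were common among all genes. PSAT1 had a difference of 0.98 (95% interval 0.69 to 1.26), ALDH1L2 of 0.92 and MTHFD1 of 0.79, while PSPH had -1.12 (95% interval -1.46 to -0.77). PHGDH and SHMT1 had CPM intervals on opposite sides of 0 in the lines, with differences of 0.83 and -1.31. For SHMT2 the difference was -0.02 (95% interval -0.23 to 0.20), and for MTHFD2L it was 0.17 (95% interval -0.44 to 0.78). These intervals hold counting error and no variation between cultures.

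A melatonin effect shared by both lines was tested with the line as a block, over all 4 libraries and with 1 residual degree of freedom. By edgeR's quasi-likelihood test, 0 of the 10 enzymes had an adjusted p under 0.05 and 0 had an unadjusted p under 0.05, where 0.352% and 5.90% of the 19301 genes fitted did. MTHFD1 had the lowest adjusted p by this edgeR fit, 0.966 (unadjusted 0.0852), with a log2 fold change of 0.67 over both lines. PSAT1 had 0.54, ALDH1L2 0.48 and PSPH -0.45. This fit counts a difference in response between the lines as error, so it bears only on what the lines share.

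Cytosolic and mitochondrial enzymes were compared within each line. The mitochondrial enzymes made up 85.9% of the summed FPKM of the 7 folate enzymes in the JJ012 control and 86.3% after melatonin. In 143B they made up 91.8% in the control and 90.2% after melatonin. The mitochondrial sum was 6.11 times the cytosolic one in untreated JJ012 and 11.2 times in untreated 143B. In JJ012 the median log2 fold change was 0.48 for the 5 mitochondrial enzymes and 0.12 for the 2 cytosolic ones, whose values lay at -0.55 and 0.80 on either side of it. In 143B the medians were 0.08 over 4 mitochondrial enzymes and 0.24 over the 2 cytosolic ones. The difference of medians, mitochondrial less cytosolic, was 0.35 in JJ012 and -0.16 in 143B, and the value in JJ012 became 0.04 when it was computed from summed FPKM.

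Ratios of paired enzymes within a library avoid the library total. Their levels depend on the deposited exonic lengths, whereas their log2 changes, taken from counts, do not. SHMT2 over SHMT1, the same reaction in mitochondria and cytosol, was 2.94 in the JJ012 control and 4.84 after melatonin on the FPKM scale, a log2 change of 0.72 (95% counting interval 0.37 to 1.07). In 143B it was 9.94 in the control and 6.69 after melatonin, a log2 change of -0.57 (95% counting interval -0.86 to -0.28). The ratio thus moved in opposite directions in the lines by more than counting error. In JJ012 the shift came with a lower SHMT1 count, and in 143B with a higher one.

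MTHFD1L over MTHFD1, the mitochondrial and cytosolic formate-handling enzymes, was 4.93 in the JJ012 control and 3.35 after melatonin, a log2 change of -0.55 (95% counting interval -0.74 to -0.37). In 143B it was 5.63 and 5.20, with an interval of -0.28 to 0.06 that included 0. MTHFD2 over MTHFD2L, which are both mitochondrial, was 4.24 and 5.48 in control and melatonin-treated JJ012 and 36.9 and 40.1 in 143B. The untreated lines differed by -3.12 on the log2 scale in this ratio (95% counting interval -3.57 to -2.67), with relatively more MTHFD2L in JJ012. Its changes after melatonin were 0.37 in JJ012 (95% counting interval 0.10 to 0.64) and 0.12 in 143B (95% counting interval -0.44 to 0.68). The deposited lengths of MTHFD1 and MTHFD2 were 1.85 and 2.35 times those of GENCODE 29. With GENCODE lengths the level of MTHFD1L over MTHFD1 would be lower and that of MTHFD2 over MTHFD2L higher, in every library.

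**Figure D3:**
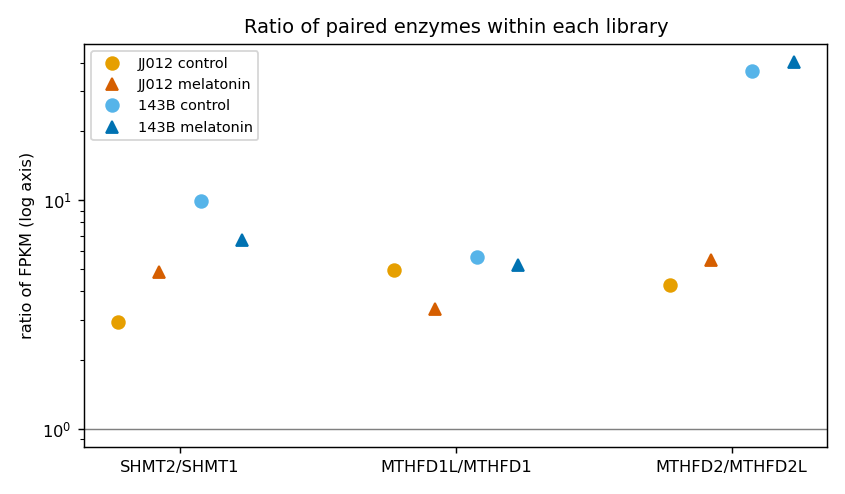
Ratio of FPKM of SHMT2 to SHMT1, MTHFD1L to MTHFD1 and MTHFD2 to MTHFD2L in each library, on a log axis with a line at 1. SHMT2/SHMT1 goes from 2.94 to 4.84 in JJ012 and from 9.94 to 6.69 in 143B, and MTHFD2/MTHFD2L is 36.9 or more in 143B.

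Other genes of the pathway were taken from written lists, whose counts stand beside 19.6% of all tested genes called higher and 18.6% called lower in JJ012 and 6.09% and 6.65% in 143B. With 2 to 9 tested genes in a list, such counts are descriptions. Of 10 genes for folate uptake, retention and reduction, 7 were tested in JJ012, where 2 fell and 0 rose (18.6% and 19.6% of all tested genes), with a median log2 fold change of -0.12. FOLR1, the folate receptor alpha, fell from 4.42 to 0.66 FPKM (136 and 17 counts), 6.72-fold lower by CPM, and had 0 counts in both 143B libraries. GGH, which trims the glutamate tail of stored folates, fell from 17.66 to 5.77 FPKM, 3.06-fold lower by CPM. In 143B, 1 of 6 tested genes rose and 0 fell, with a median of 0.18. That gene was DHFR2, with 2.68 and 4.63 FPKM, a close copy of dihydrofolate reductase whose counts may share reads with it.

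Of 10 genes that use one-carbon units, 1 of 9 tested rose and 0 fell in JJ012, with a median of 0.27, fewer than the 19.6% and 18.6% of all tested genes. This was GART, a purine synthesis enzyme that takes formyl groups from folate, from 13.06 to 32.70 FPKM, 2.5-fold by CPM. In 143B, 2 of 7 tested genes rose and 0 fell, with a median of 0.20. MTFMT, which formylates the initiator tRNA of mitochondria, rose from 1.78 to 3.67 FPKM (97 and 216 counts). FTCD, which passes a carbon from histidine breakdown to folate, rose from 1.01 to 2.26 FPKM (55 and 133 counts).

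Glycine cleavage had 0 of 2 tested genes called in each line, with medians of 0.12 in JJ012 and 0.31 in 143B. Among 8 genes of serine and glycine transport and breakdown, 1 of 6 tested rose in JJ012, SDS, a serine dehydratase, from 0.62 to 1.48 FPKM (36 and 72 counts), and 0 of 4 were called in 143B. The medians were -0.01 and 0.10. Among 9 genes of the methionine cycle and transsulfuration, 2 of 6 tested rose in JJ012 (19.6% of all tested genes), with a median of 0.26, and 0 of 8 were called in 143B, with a median of 0.04. CTH, which makes cysteine from cystathionine, rose from 5.91 to 15.93 FPKM in JJ012, 2.70-fold by CPM, and AHCYL2, a relative of the enzyme that clears S-adenosylhomocysteine, rose from 4.92 to 8.51 FPKM.

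ATF4 is a transcription factor that drives genes of serine synthesis, of the mitochondrial folate branch and of other pathways when amino acids are short. Of the list of ATF4 and 7 of its other targets, 3 of 7 tested rose and 1 fell in JJ012 (19.6% and 18.6% of all tested genes). The median there was 0.577, the value of ATF4 itself. In 143B, 1 of 8 rose and 2 fell, with a median of -0.06. DDIT3, a stress-induced transcription factor, rose from 44.23 to 162.32 FPKM in JJ012 and fell from 17.53 to 10.88 FPKM in 143B. TRIB3, a pseudokinase that restrains ATF4, rose from 12.43 to 28.59 FPKM in JJ012 and had 15.64 and 13.58 FPKM in 143B. CEBPB, a partner of ATF4, rose from 48.84 to 75.92 FPKM in JJ012 and fell from 64.99 to 34.85 FPKM in 143B. VLDLR, a lipoprotein receptor, fell from 11.89 to 7.14 FPKM in JJ012. The gene that rose in 143B was CHAC1, a glutathione-degrading enzyme, from 0.46 to 1.22 FPKM (15 and 43 counts), and like ATF4 it was named after its values were seen. ATF4 itself had 135.49 and 202.61 FPKM in JJ012, a log2 fold change of 0.577 just under the threshold, and 345.50 and 352.52 FPKM in 143B.

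**Figure D4:**
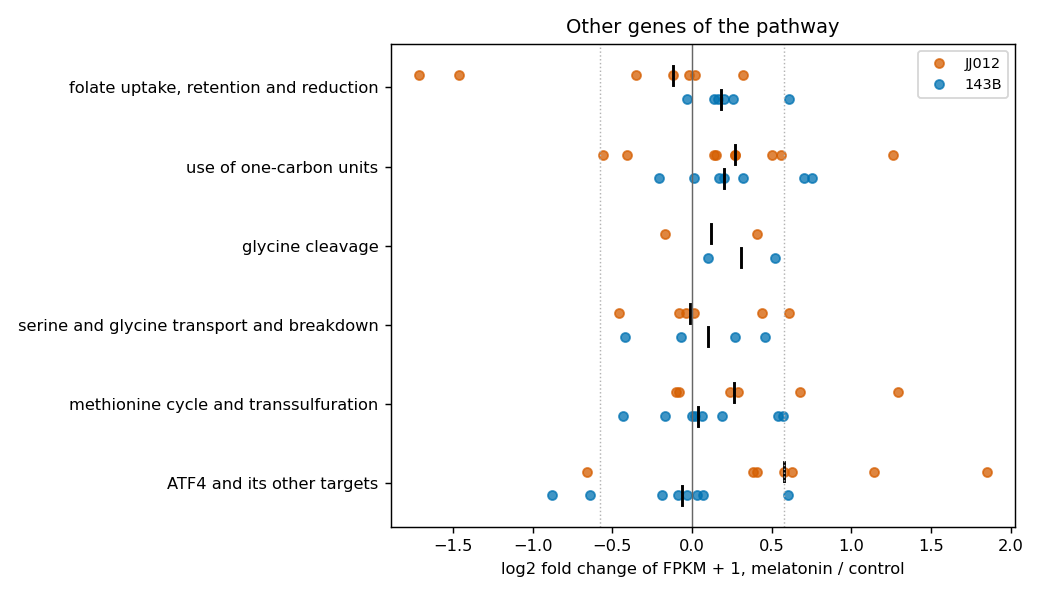
Log2 fold change of FPKM + 1, melatonin over control, for each tested gene of 6 pathway lists in JJ012 (upper points of each list) and 143B (lower points), with black bars at the medians and dotted lines at 0.58 on either side of 0. In JJ012 the points reach from -1.71 for FOLR1 to 1.85 for DDIT3, and in 143B from -0.88 for CEBPB to 0.75 for MTFMT.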

How the data were processed

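Poly(A)-selected RNA of 4 libraries was sequenced as paired ends. For each gene the authors deposited raw counts and FPKM, which are those counts divided by the deposited exonic length and the library total, rounded to 2 decimals. All FPKM matched that rule within 0.0051. The submitters' processing notes name cutadapt 1.9.1, HISAT2 2.2.1, HTSeq 0.6.1, DESeq2 and build hg38. The annotation release and strand setting are not given in the sources used here. Columns were matched to samples by cell line, and the suffix T was read as the melatonin library.

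Log2 fold changes came from FPKM with a pseudocount of 1. The threshold of 0.58 is the fold limit in the study's methods, whose FDR needs replicates. Exact Clopper-Pearson 95% intervals of CPM ratios condition on the sum of the 2 counts of a gene. Intervals of ratios of ratios used a normal approximation on the log scale. PCR copies are not independent molecules, so the intervals cover counting error only. With 1 library per condition no count model can be fitted within a line. edgeR 4.0.16 (R 4.3.3) gave TMM factors, between 0.892 and 1.15, and a quasi-likelihood fit of line and treatment over the 4 libraries with Benjamini-Hochberg adjustment, added after seeing the data. The length trend was a running median over 501 genes. Alternatives were another pseudocount, filter, scaling, centring and threshold.

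All genes in the fixed lists were counted, and those called in either line were named, at most 4 per list by size of change. ATF4, CHAC1 and ASNS were named outside this rule. The enzymes and lists were chosen with earlier results of these data known. Of 14 pseudogenes named after the enzymes, none had over 8 counts in a library. The scripts were tested on simulated data and used Python 3.11.15, numpy 2.4.6, pandas 2.3.3, scipy 1.17.1 and matplotlib 3.10.9. Protein sequences were not used here.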

Additional observations from a re-analysis of the deposited data

Results flagged for a closer look

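The following genes had counting intervals on opposite sides of 0 in the cell lines, JJ012 against 143B, so that the single library pair of each line moved in opposite directions. Whether the lines differ beyond the variation between cultures was not tested. Of the 11358 genes tested in both lines, 70.9% had a difference between the lines whose counting interval excluded 0. That rule is wider than intervals on opposite sides of 0, whose share over all genes was not computed. The log2 CPM ratio in JJ012 less that in 143B was 0.83 for PHGDH, with 95% counting intervals of 0.14 to 0.58 in JJ012 and -0.52 to -0.42 in 143B. For SHMT1 it was -1.31, with intervals of -1.21 to -0.60 and 0.13 to 0.67. Among the other genes of the pathway lists, it was -1.78 for GGH, -1.78 for FTCD, 0.54 for SFXN1, a mitochondrial serine transporter, and 0.46 for AHCYL1. Neither this last pair nor PHGDH or SHMT1 reached the fold threshold in either line. Among ATF4 targets it was 2.56 for DDIT3, 1.54 for CEBPB, 1.41 for TRIB3 and -0.81 for VLDLR. Some of the intervals in 143B ended close to 0. They ran from -0.13 to -0.00053 for SFXN1, from 0.01 to 0.15 for VLDLR and from 0.03 to 0.31 for GGH. In JJ012, PHGDH had a log2 fold change of -0.02 once the length trend was removed.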

How the results depend on the processing

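With 1 library per condition, none could be left out. With the line as a block over both lines, edgeR called 0 enzymes, and also 0 with RLE size factors or without a low-count filter. In JJ012, 4 enzymes were called, where 38.2% of all tested genes were. A filter of 5 FPKM gave 2 (39.7% of genes) and left fewer enzymes tested, and a threshold of 1 gave 0 (14.7%). Between the untreated lines, 8 were called (68.7%), against 4 with a threshold of 1 (47.2%). The other alternatives gave between 3 and 6 called enzymes in JJ012, between 7 and 9 between the untreated lines and 0 in 143B. Their shares of all genes ran from 11.5% to 50.3% in JJ012 and from 22.3% to 75.2% between the untreated lines. In 143B the shares ran from 3.96% to 20.9%. Each lowest share was the one without a filter. The difference of mitochondrial and cytosolic medians in JJ012 was 0.35 and became 0.04 from summed FPKM, which weights the abundant enzymes, while its other alternatives ran from 0.28 to 0.43. In 143B it ran from -0.29 to -0.16. Of 223 recomputed values of single enzymes, 166 moved by less than their counting error and 57 by more, and no called value changed sign. The 166 include the values under a changed filter, which leaves a fold change as it is, so these could not move. In 9 of the 223 an uncalled value changed sign, in JJ012 for SHMT2 (TPM), PHGDH and MTHFD2L (length trend). With 49 and 54 counts, MTHFD2L in 143B could hide a change of up to 0.62 on the log2 scale.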
